A study of Mus musculus with 12 samples.

Results

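Sox2, Foxa1, Foxa2, Foxa3, Gata4, Gata5, Gata6, Klf4, Klf5 and Spdef encode transcription factors that are expressed in the epithelium of the stomach, and their RNA was followed across the 12 arrays of a study of stomachs from Car9-/- and wild-type mice. These 10 genes were chosen by name, and all probes whose symbol in the platform annotation is one of them were taken, which gave 10 of the 19406 genes named on the array and 18 of its 46643 probes. The groups were 6 Car9-/- mice, aged 10 to 12 months, and 6 wild-type mice, aged 8 to 12 months, all of strain C57BL/6, with 3 males and 3 females per genotype. The targeted disruption of Car9, the gene of the membrane-bound carbonic anhydrase CA IX, is carried in all tissues of a Car9-/- mouse, not in the stomach alone. Total RNA of each mouse was hybridized to 1 Illumina Mouse-6 array without pooling, and the signals are given on the log2 scale after quantile normalization. The level of one probe cannot be set against that of another, because probes differ in how brightly they bind.

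The mouse stomach holds 2 kinds of epithelium. The forestomach is lined by a stratified squamous epithelium that makes keratins such as Krt5 and Krt14 in its basal layer. The glandular stomach is lined by a columnar epithelium with pit cells, which secrete gastrokines such as Gkn1, and acid-secreting parietal cells, which carry the proton pump subunit Atp4a. SOX2 is a factor of the foregut and of basal squamous cells, the FOXA proteins open chromatin in gut endoderm, and GATA4, GATA5 and GATA6 act in glandular gut epithelium, with Gata4 silent in the forestomach of the developing mouse. KLF5 is found in dividing epithelial cells and KLF4 in differentiating ones, and SPDEF drives mucous and goblet cell maturation, in the antral glands of the stomach among other sites.

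Both probes of Car9 were lower in Car9-/- mice (limma log2 differences of -1.67 and -1.18, with adjusted p = 3.83e-07 and 9.70e-04), and median signals were 75.6 to 101.4 over the arrays, with 18141 to 20276 probes detected. The specimens, which the study's methods place in the body of the stomach, were mixed in content. The parietal and pit cell genes Atp4a and Gkn1 were detected in all 12 mice, and the forestomach keratin Krt5 in 4 Car9-/- and 3 wild-type mice. A group of exocrine pancreas genes had a mean log2 level of 7.82 to 8.50 in Car9-/- mice and 8.53 to 12.43 in wild-type mice, where mice 4 and 6 stood far above the others. Every Car9-/- mouse thus lay below every wild-type mouse in this pancreas level. A fit with it as a covariate therefore cannot fully tell it apart from genotype, and a call lost in such a fit does not show which of them the difference follows. The 6 smooth muscle genes examined (Acta2, Myh11, Cnn1, Actg2, Tagln and Des) had a mean level of 10.64 to 11.50 in Car9-/- mice and 11.25 to 12.05 in wild-type mice. Of the 12 pancreas genes tested, 11 had log2 differences below 0 and 2 were called lower, and of the 6 smooth muscle genes, 6 were below 0 and 0 were called by limma, with 3 lower at an unadjusted p under 0.05. In RNA of a whole tissue, fewer cells of a type and less RNA per cell cannot be told apart.

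Klf5 rose in the Car9-/- stomach, and 1 of the Gata6 probes rose with it, while no probe of the 10 genes fell past the threshold. Of the 18 probes, 15 were detected on enough arrays to be tested, each of them on 12 of 12 arrays, and these covered all 10 genes. The other 3 probes, 1 each of Sox2, Foxa2 and Klf5, were detected on 0 arrays. Of the 15 tested probes, 2 (13.3%) were called higher and 0 lower by limma with Benjamini-Hochberg adjustment over all 20751 tested probes, of which 5.34% were called higher and 5.25% lower. At an unadjusted p under 0.05, 9 of the 15 probes were higher and 0 lower, where 13.2% of all probes were higher. Log2 differences were above 0 at 13 of the 15 probes, against 49.9% of all probes, and their median was 0.32, against -0.000681 for all probes. Quantile normalization holds the array as a whole in place, so these differences are relative to the other probes, and most of them did not pass the test.

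**Figure D1:**
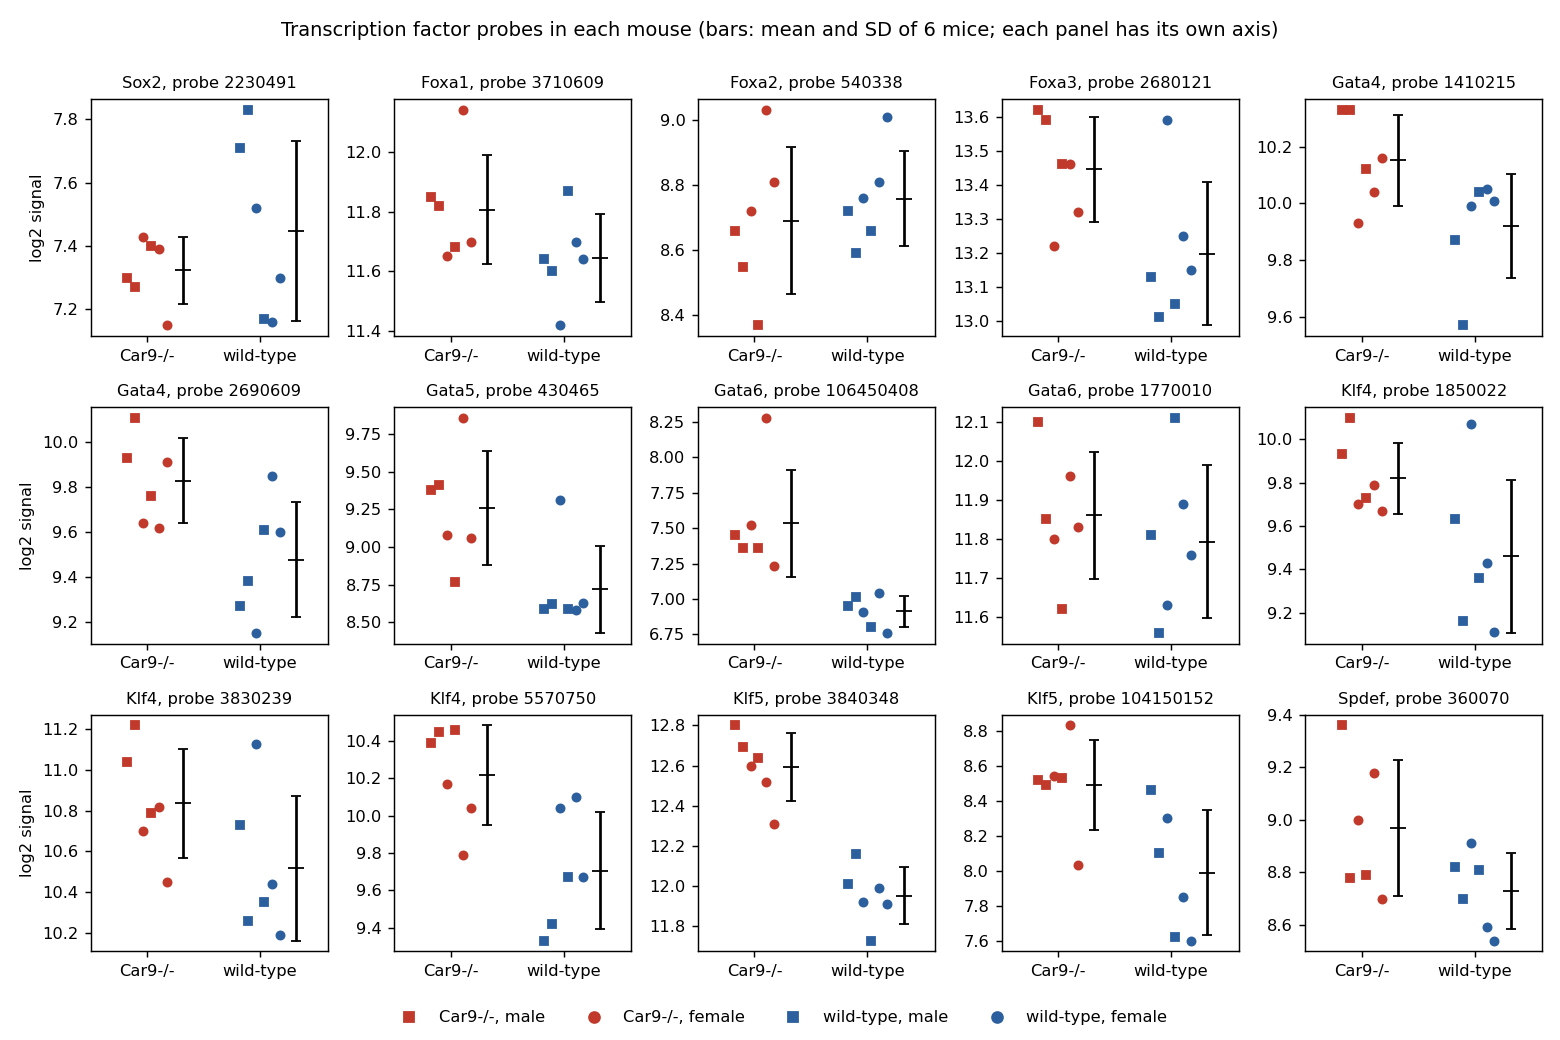
Log2 signal (vertical axes, each panel with its own scale) of the 15 tested probes in the 12 mice, Car9-/- on the left and wild-type on the right, squares for males and circles for females, with the mean and SD of 6 mice as bars. Only at Klf5 probe 3840348 and Gata6 probe 106450408 do all 6 Car9-/- mice lie above all 6 wild-type mice.

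**Figure D2:**
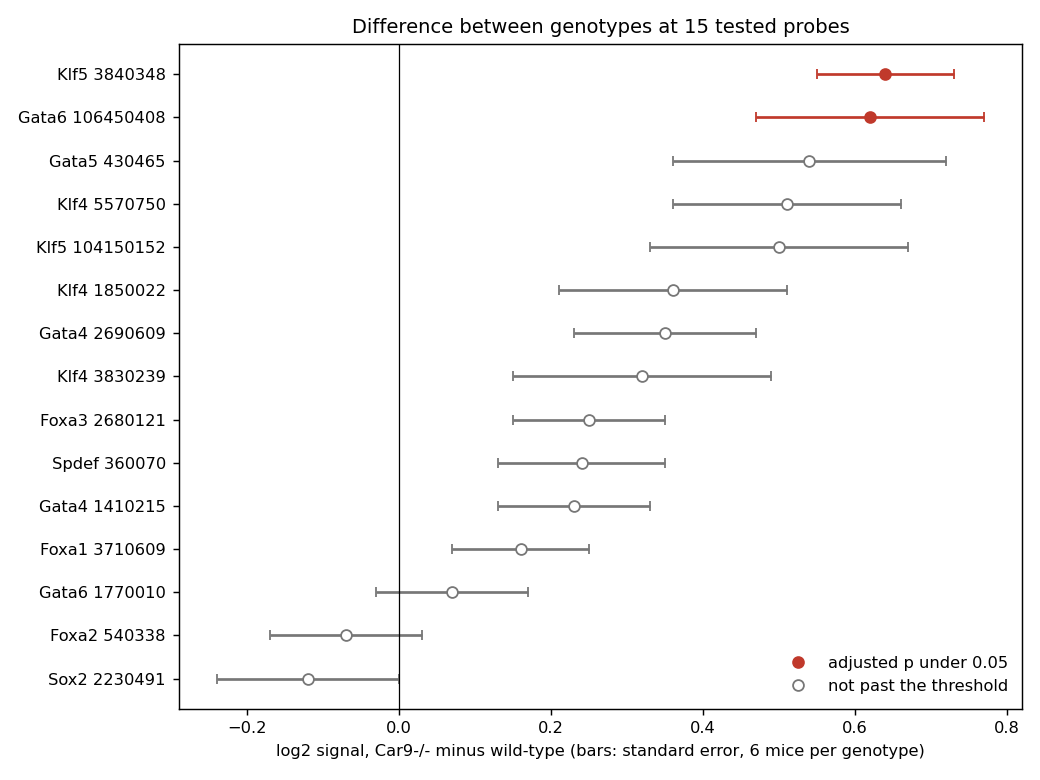
Log2 difference, Car9-/- minus wild-type (horizontal axis), with its standard error for each tested probe, sorted from the highest at the top, filled where the adjusted p is under 0.05. The filled points are Klf5 at 0.64 and Gata6 at 0.62, and the only points left of 0 are Sox2 at -0.12 and Foxa2 at -0.07, of which Foxa2 was at 0.14 with arrays brought to a common median.

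Promoter sequence was read from RefSeq for GRCm38.p6, as the 250 bases before a gene's start, and 7 of the 10 genes matched. No window was read for Klf5, Gata6 or Gata4, so the 2 genes with a called probe, Klf5 and Gata6, were not covered. The windows shown are those of Klf4, Gata5, Foxa1 and Sox2, which stand for the gene families compared here and include the gene with the lowest difference, with that of Gkn1 as a glandular gene. Capitals mark, on either strand, AGATAA or TGATAA (letters bound by GATA factors), TGTTTAC (forkhead factors), CATTGTT (SOX factors) and GGGGCGGG (KLF factors, and the GC box of SP factors).
Klf4, chr4:55532476-55532725, - strand: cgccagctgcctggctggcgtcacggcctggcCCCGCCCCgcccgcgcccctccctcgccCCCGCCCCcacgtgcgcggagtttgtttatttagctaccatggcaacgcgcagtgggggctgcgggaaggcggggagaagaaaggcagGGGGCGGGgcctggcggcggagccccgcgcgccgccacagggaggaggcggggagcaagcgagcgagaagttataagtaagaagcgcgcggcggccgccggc
Gata5, chr2:180334680-180334929, - strand: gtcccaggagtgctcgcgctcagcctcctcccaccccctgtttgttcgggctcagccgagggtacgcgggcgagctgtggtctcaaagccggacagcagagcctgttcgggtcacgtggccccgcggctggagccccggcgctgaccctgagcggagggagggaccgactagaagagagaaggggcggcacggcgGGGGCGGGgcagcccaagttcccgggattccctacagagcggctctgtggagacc
Foxa1, chr12:57546112-57546361, - strand: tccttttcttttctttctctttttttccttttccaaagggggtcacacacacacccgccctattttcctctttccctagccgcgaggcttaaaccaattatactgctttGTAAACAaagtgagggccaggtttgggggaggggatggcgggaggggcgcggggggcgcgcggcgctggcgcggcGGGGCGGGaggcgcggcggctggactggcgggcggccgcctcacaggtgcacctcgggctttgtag
Sox2, chr3:34649745-34649994, + strand: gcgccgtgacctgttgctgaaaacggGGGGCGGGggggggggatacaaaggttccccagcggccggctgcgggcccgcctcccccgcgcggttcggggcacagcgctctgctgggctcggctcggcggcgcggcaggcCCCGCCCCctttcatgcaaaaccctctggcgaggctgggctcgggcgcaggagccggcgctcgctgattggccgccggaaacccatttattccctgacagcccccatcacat
Gkn1, chr6:87350916-87351165, - strand: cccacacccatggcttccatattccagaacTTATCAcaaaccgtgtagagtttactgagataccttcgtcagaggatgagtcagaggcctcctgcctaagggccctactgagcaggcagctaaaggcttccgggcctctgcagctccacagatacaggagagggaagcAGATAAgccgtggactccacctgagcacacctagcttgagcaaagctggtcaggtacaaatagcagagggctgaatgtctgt

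The KLF letters were found in the windows of 5 of these 7 genes (Klf4, Gata5, Foxa1, Foxa3 and Sox2), with 3 matches in that of Klf4, and in 4919 of the 32851 windows of the same length in the table. The forkhead letters stood in the Foxa1 window, 141 bases before the start, and in 3.17% of all windows. AGATAA was found in 1 of the Foxa2 windows and in that of Gkn1, 82 bases before its start, against 9.99% of all windows, and TGATAA in those of Gkn1 and Krt14, against 7.94%. CATTGTT was in none of the windows of these genes and in 3.29% of all windows. These matches describe the letters, and no binding was measured.

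Klf5, on chromosome 14 (99298691 to 99313412 in GRCm38.p6), was the most clearly altered of the 10 genes. Probe 3840348 ranged over 12.31, 12.62 and 12.80 (lowest, median and highest) in Car9-/- mice, against 11.73, 11.96 and 12.16 in wild-type mice. Every Car9-/- mouse exceeded every wild-type mouse, which was so, in this direction, at 2.27% of all tested probes. The mean was 12.59 ± 0.16 in Car9-/- mice and 11.95 ± 0.14 in wild-type mice (SD, n = 6 each), a difference of 0.64 (standard error 0.09, adjusted p = 0.00289 from limma), or 1.56-fold. The difference was 0.53 (limma adjusted p = 0.0399) with the pancreas level as a covariate and 0.65 (limma adjusted p = 0.0212) with the smooth muscle level.

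The remaining tested Klf5 probe, 104150152, was also higher but did not pass. Its lowest, median and highest values were 8.03, 8.52 and 8.83 in Car9-/- mice and 7.60, 7.97 and 8.46 in wild-type mice. The groups overlapped through Car9-/- mouse 6 alone, and the difference of 0.50 had an adjusted p of 0.0711 from limma. It was called when Car9-/- mouse 6, wild-type mouse 1 or wild-type mouse 3 was left out. It was 0.21 (limma adjusted p = 0.524) when the pancreas level was a covariate and 0.31 (limma adjusted p = 0.263) without wild-type mice 4 and 6, and it was called with the smooth muscle level (0.75, limma adjusted p = 0.0401). The tested pair of probes correlated over the 12 mice (r = 0.758), as a description in which the genotype difference has a share. The named genes whose probes followed Klf5 probe 3840348 most closely over the 12 mice were Gar1 (r = 0.974), which encodes a protein of H/ACA ribonucleoproteins, F5 (r = 0.973), which encodes coagulation factor V, and Polr1e (r = 0.957), which encodes a subunit of RNA polymerase I.

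Klf4, on chromosome 4 (55527137 to 55532475), was measured by 3 probes that all lay higher in Car9-/- mice without passing the test. Probe 5570750 ranged over 9.79, 10.28 and 10.46 in Car9-/- mice, against 9.33, 9.67 and 10.10 in wild-type mice. Of the 6 Car9-/- mice, 4 were above all wild-type mice, and the difference of 0.51 had an adjusted p of 0.0525 from limma. It was called when Car9-/- mouse 5, wild-type mouse 3 or wild-type mouse 5 was left out.

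The other Klf4 probes overlapped more. Probe 1850022 had 9.67, 9.76 and 10.10 in Car9-/- mice and 9.11, 9.39 and 10.07 in wild-type mice, a difference of 0.36 (adjusted p = 0.131 from limma). Probe 3830239 had 10.45, 10.80 and 11.22 in Car9-/- mice and 10.19, 10.39 and 11.13 in wild-type mice, a difference of 0.32 (adjusted p = 0.235 from limma). When the pancreas level was a covariate, the differences were 0.18 at probe 1850022 and 0.11 at probe 3830239, and with the smooth muscle level 0.56 and 0.54, none of them called (limma adjusted p = 0.609, 0.795, 0.0692 and 0.114). At both, wild-type mouse 3 was the highest of its group and lay among the top Car9-/- mice. Without that mouse, probe 1850022 passed the test. These probes followed each other closely (r = 0.965), and probe 5570750 less so (r = 0.650 and 0.596). The nearest neighbours of Klf4 probe 3830239 were Adam15 (r = 0.956), Pcyox1l (r = 0.946) and Rpl28 (r = 0.938).

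Of the 3 GATA genes, Gata5 and a Gata6 probe showed the largest differences. Gata6 lies on chromosome 18 (11052510 to 11085636), and its probe 106450408 had 7.23, 7.40 and 8.28 in Car9-/- mice, against 6.76, 6.93 and 7.04 in wild-type mice. The groups did not overlap, and Car9-/- mouse 5 was far above the other 5 Car9-/- mice. The mean was 7.53 ± 0.38 in Car9-/- mice and 6.91 ± 0.11 in wild-type mice (SD, n = 6 each), a difference of 0.62 (standard error 0.15, adjusted p = 0.0216 from limma), or 1.54-fold. With background correction by neqc it was 1.01 (limma adjusted p = 0.0145). With each mouse left out in turn the difference ran between 0.47 and 0.68, and it was called each time. The call was lost with the pancreas level as a covariate (0.53, limma adjusted p = 0.161) and with the smooth muscle level (0.63, limma adjusted p = 0.078).

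The remaining Gata6 probe, 1770010, gave another picture. It had 11.62, 11.84 and 12.10 in Car9-/- mice and 11.56, 11.78 and 12.11 in wild-type mice, a difference of 0.07 (adjusted p = 0.682 from limma). The groups covered the same range. The platform annotation ties probe 106450408 to another transcript record than probe 1770010, and over the 12 mice the pair had r = 0.244, the lowest of the 6 pairs of probes of one gene. Which transcript of Gata6 the called probe binds was not determined, and the gene as a whole is therefore uncertain.

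Gata5, on chromosome 2 (180325088 to 180335503), had 8.77, 9.23 and 9.86 in Car9-/- mice, against 8.58, 8.61 and 9.31 in wild-type mice. The wild-type values were tight, between 8.58 and 8.63, except in mouse 3, which reached 9.31 and lay among the Car9-/- mice. The difference was 0.54 (standard error 0.18), and its adjusted p of 0.0708 from limma missed the threshold. It passed without wild-type mouse 3 or without Car9-/- mouse 4, the lowest of its group. The nearest neighbours of Gata5 were Abhd11 (r = 0.969), Zmynd8 (r = 0.956) and Arrdc1 (r = 0.938).

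Gata4, on chromosome 14 (63198914 to 63271712), had 2 tested probes that lay higher in Car9-/- mice. Probe 2690609 had 9.62, 9.84 and 10.11 in Car9-/- mice and 9.15, 9.49 and 9.85 in wild-type mice, a difference of 0.35 (adjusted p = 0.0845 from limma). Probe 1410215 had 9.93, 10.14 and 10.33 in Car9-/- mice and 9.57, 10.00 and 10.05 in wild-type mice, a difference of 0.23 (adjusted p = 0.143 from limma). The groups overlapped at both, and leaving out wild-type mouse 5 brought probe 2690609 past the threshold. The pair correlated over the 12 mice (r = 0.757).

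Differences were smaller among the FOXA genes. Foxa3, on chromosome 7, had 13.22, 13.46 and 13.62 in Car9-/- mice and 13.01, 13.14 and 13.59 in wild-type mice, a difference of 0.25 (adjusted p = 0.135 from limma). Wild-type mouse 3 was again the highest of its group, at 13.59, with the other 5 wild-type mice at or below 13.25, and without it Foxa3 passed the test. The nearest neighbour of Foxa3 was Gal3st1 (r = 0.983), the enzyme that makes sulfatide, which itself had a difference of 0.51.

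Foxa1, on chromosome 12, had 11.65, 11.76 and 12.14 in Car9-/- mice and 11.42, 11.64 and 11.87 in wild-type mice, a difference of 0.16 (adjusted p = 0.291 from limma). Foxa2, on chromosome 2, had 8.37, 8.69 and 9.03 in Car9-/- mice and 8.59, 8.74 and 9.01 in wild-type mice, a difference of -0.07 (adjusted p = 0.719 from limma). The groups overlapped at both, with 4 of the 6 wild-type mice below the lowest Car9-/- mouse at Foxa1, and Foxa2 turned to 0.14 when arrays were brought to a common median. Spdef, on chromosome 17, had 8.70, 8.90 and 9.36 in Car9-/- mice and 8.54, 8.76 and 8.91 in wild-type mice, a difference of 0.24 (adjusted p = 0.194 from limma). Its 3 highest Car9-/- mice (1, 5 and 3) lay above all wild-type mice and the others among them.

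Sox2, on chromosome 3 (34649995 to 34652461), was the gene with the lowest difference. It was 7.30, 7.27, 7.43, 7.40, 7.39 and 7.15 in Car9-/- mice 1 to 6, and 7.71, 7.83, 7.52, 7.17, 7.16 and 7.30 in wild-type mice 1 to 6. The wild-type mice covered a wider range, with mice 1, 2 and 3 above every Car9-/- mouse and mice 4 and 5 near the lowest. The difference of -0.12 (standard error 0.12) had an adjusted p of 0.518 from limma.

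When arrays were only brought to a common median, without matching their distributions, the median log2 difference of all probes was 0.113. On that scale 3585 probes were called higher and 426 lower, against 1108 higher and 1089 lower with quantile normalization, and 13 of the 15 probes passed, all higher. Without wild-type mouse 3, 7 of the 15 probes were called, and 2739 of all 20751. Without wild-type mouse 5, the counts were 4 of the 15 and 1461 of all 20751. Klf5 probe 3840348 was called in each of the 26 alternative fits, and 12 of the 15 probes kept their direction in all of them. The exceptions were Sox2, Foxa2 and Gata6 probe 1770010.

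The genotype difference was also compared between the sexes, with 3 mice of each sex per genotype. None of the 15 probes differed between males and females past the threshold (lowest limma adjusted p = 0.175), where 3 of all 20751 probes passed. At an unadjusted limma p under 0.05, the counts were 3 of the 15 probes and 1920 of all 20751 probes. Klf4 probe 5570750 had a difference of 0.96 in males and 0.06 in females. Foxa3 had 0.50 in males and 0.01 in females, and Gata4 probe 1410215 had 0.43 in males and 0.03 in females. At Klf5 probe 3840348 the differences were 0.75 in males and 0.54 in females.

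**Figure D3:**
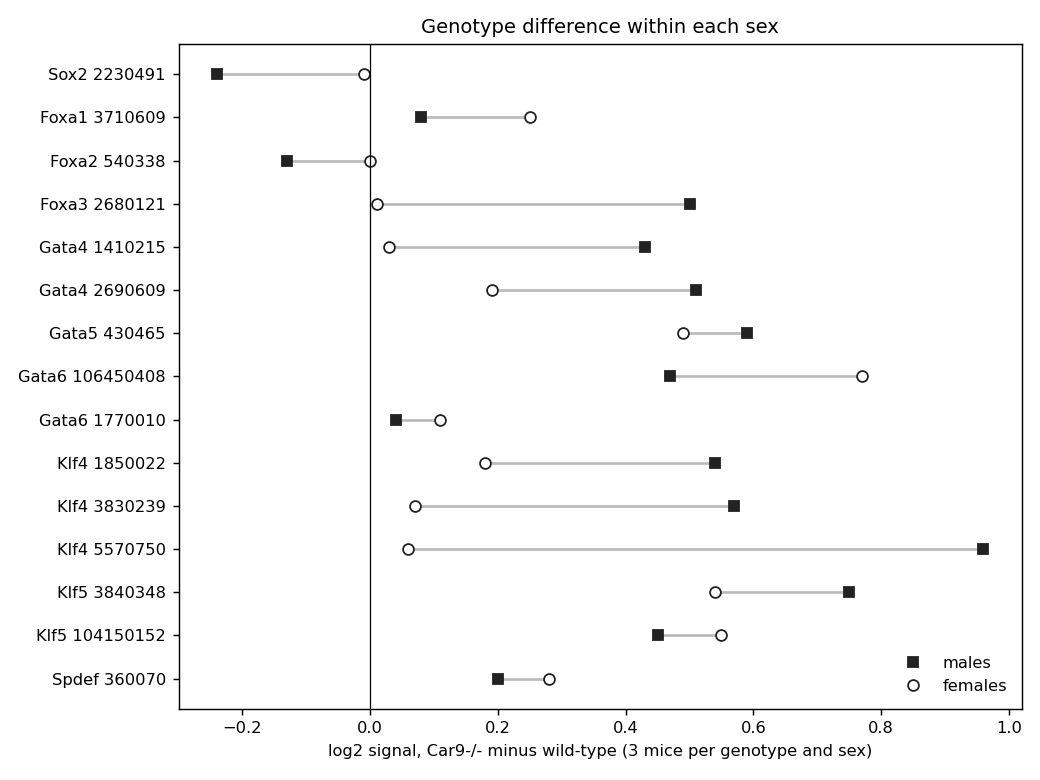
Log2 difference, Car9-/- minus wild-type (horizontal axis), at each tested probe in males (squares) and females (open circles), with 3 mice per genotype and sex. The widest gap is at Klf4 probe 5570750 (0.96 and 0.06), and no gap passed the interaction test.

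None of the 4 signal genes passed the test between genotypes. Krt5 had 5.93, 8.79 and 10.34 in Car9-/- mice and 5.91, 8.17 and 10.87 in wild-type mice (limma adjusted p = 0.967), and Krt14 had 6.21, 11.76 and 13.48 in Car9-/- mice and 6.02, 9.57 and 13.66 in wild-type mice (limma adjusted p = 0.834). Both keratins split the mice: Car9-/- mice 2, 3, 4 and 5 and wild-type mice 1, 2 and 3 were high, at 8.40 or more for Krt5, and the other 5 mice were at 6.22 or less. Of 11 squamous marker genes tested, Krt5 and Krt14 among them, 9 had differences above 0 (median 0.73) and 0 were called by limma. At an unadjusted limma p under 0.05, 2 were higher and 1 lower, and Sprr1a had the lowest p (1.72, limma adjusted p = 0.0624). Atp4a lay lower in Car9-/- mice at both probes, by 0.34 and 0.18 on the log2 scale, without passing (limma adjusted p = 0.140 and 0.0872), and Gkn1 differed by 0.02 (limma adjusted p = 0.927). Of the 6 parietal cell genes tested, Atp4a among them, 6 had differences below 0 and 1 was called lower, the gastrin receptor gene Cckbr (-0.99, limma adjusted p = 0.0255). Of the 4 pit cell genes, 2 were above 0 and 1 was called higher, Muc5ac at probe 102900300 (0.43, limma adjusted p = 0.0193). Muc5ac was not called at its other tested probes, 106510017 (-0.10), 1570025 (0.10) and 103140592 (0.88), with limma adjusted p = 0.167, 0.577 and 0.315. Of 2 neck cell and 2 chief cell genes tested, 0 were called by limma. The lowest p was at Muc6 for neck cells (0.53, limma adjusted p = 0.151) and Cblif for chief cells (-0.36, limma adjusted p = 0.0692). The mean level of the parietal genes was 9.75 to 10.36 in Car9-/- mice and 10.09 to 10.64 in wild-type mice, and that of the pit genes 15.18 to 15.29 in Car9-/- mice and 15.06 to 15.27 in wild-type mice. Cckbr lost its call with either covariate, and when any 1 mouse among numbers 1, 2 and 4 of either genotype was omitted, and Muc5ac with the pancreas level and without wild-type mice 4 and 6. The part of these cell types in the values of the 10 genes was not tested.

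Since Krt5 and Krt14 split the mice, their relation to the 10 genes was computed within the 7 mice with a high signal, the tested probe with the highest mean standing for each gene. Sox2 was higher where Krt5 was higher (r = 0.799, p = 0.0371, rho = 0.893, p = 0.0123 by exact permutation). Gata4 (r = -0.823, p = 0.0198, rho = -0.893), Gata5 (r = -0.787, p = 0.0310, rho = -0.893), Foxa3 (r = -0.737, p = 0.0563, rho = -0.909) and Klf4 (r = -0.724, p = 0.0688, rho = -0.929) ran the other way by exact permutation tests. None of these passed by r after adjustment over the 40 relations computed (exact permutation adjusted p = 0.148 to 0.183), whereas all 5 did by rho (exact permutation adjusted p = 0.0351). Krt14 gave the same rho for each gene as Krt5, since it ranked the 7 mice alike, with r of 0.709 for Sox2, -0.758 for Gata4, -0.787 for Gata5, -0.762 for Foxa3 and -0.756 for Klf4. Without the 2 mice farthest from the median of Krt5 (Car9-/- mice 2 and 5), r was 0.877 for Sox2, -0.873 for Gata4, -0.819 for Gata5, -0.938 for Foxa3 and -0.908 for Klf4. Without the same mice, r to Krt14 was 0.423 for Sox2, -0.462 for Gata4, -0.866 for Gata5, -0.870 for Foxa3 and -0.835 for Klf4. With arrays brought to a common median, r to Krt5 was 0.898 for Sox2, -0.493 for Gata4, -0.616 for Gata5, -0.389 for Foxa3 and -0.613 for Klf4, and r to Krt14 was -0.395 for Gata4 and -0.367 for Foxa3. Klf5 (r = -0.561), Foxa1 (-0.622), Gata6 (-0.647), Spdef (-0.300) and Foxa2 (-0.185) did not pass against Krt5 by either measure.

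The genotypes were not evenly placed along this scale. Among the 7 mice, Krt5 was 8.40, 10.34, 10.28 and 9.18 in Car9-/- mice 2 to 5 and 10.62, 10.87 and 10.12 in wild-type mice 1 to 3, so the relation to Krt5 overlaps with the difference between genotypes. With the genotype means removed first, r to Krt5 was 0.682 for Sox2, -0.706 for Gata4, -0.702 for Gata5, -0.657 for Foxa3 and -0.717 for Klf4 (exact permutation adjusted p = 0.245 for each). Of the 5 mice with a low Krt5 signal, Sox2 was 7.30 and 7.15 in Car9-/- mice 1 and 6, and 7.17, 7.16 and 7.30 in wild-type mice 4, 5 and 6. Over the 12 mice the genes most like Sox2 were Bcl11b (r = 0.934), Tenm2 (r = 0.932) and Trp73 (r = 0.931), of which Bcl11b and Trp73 encode transcription factors known from stratified epithelia.

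**Figure D4:**
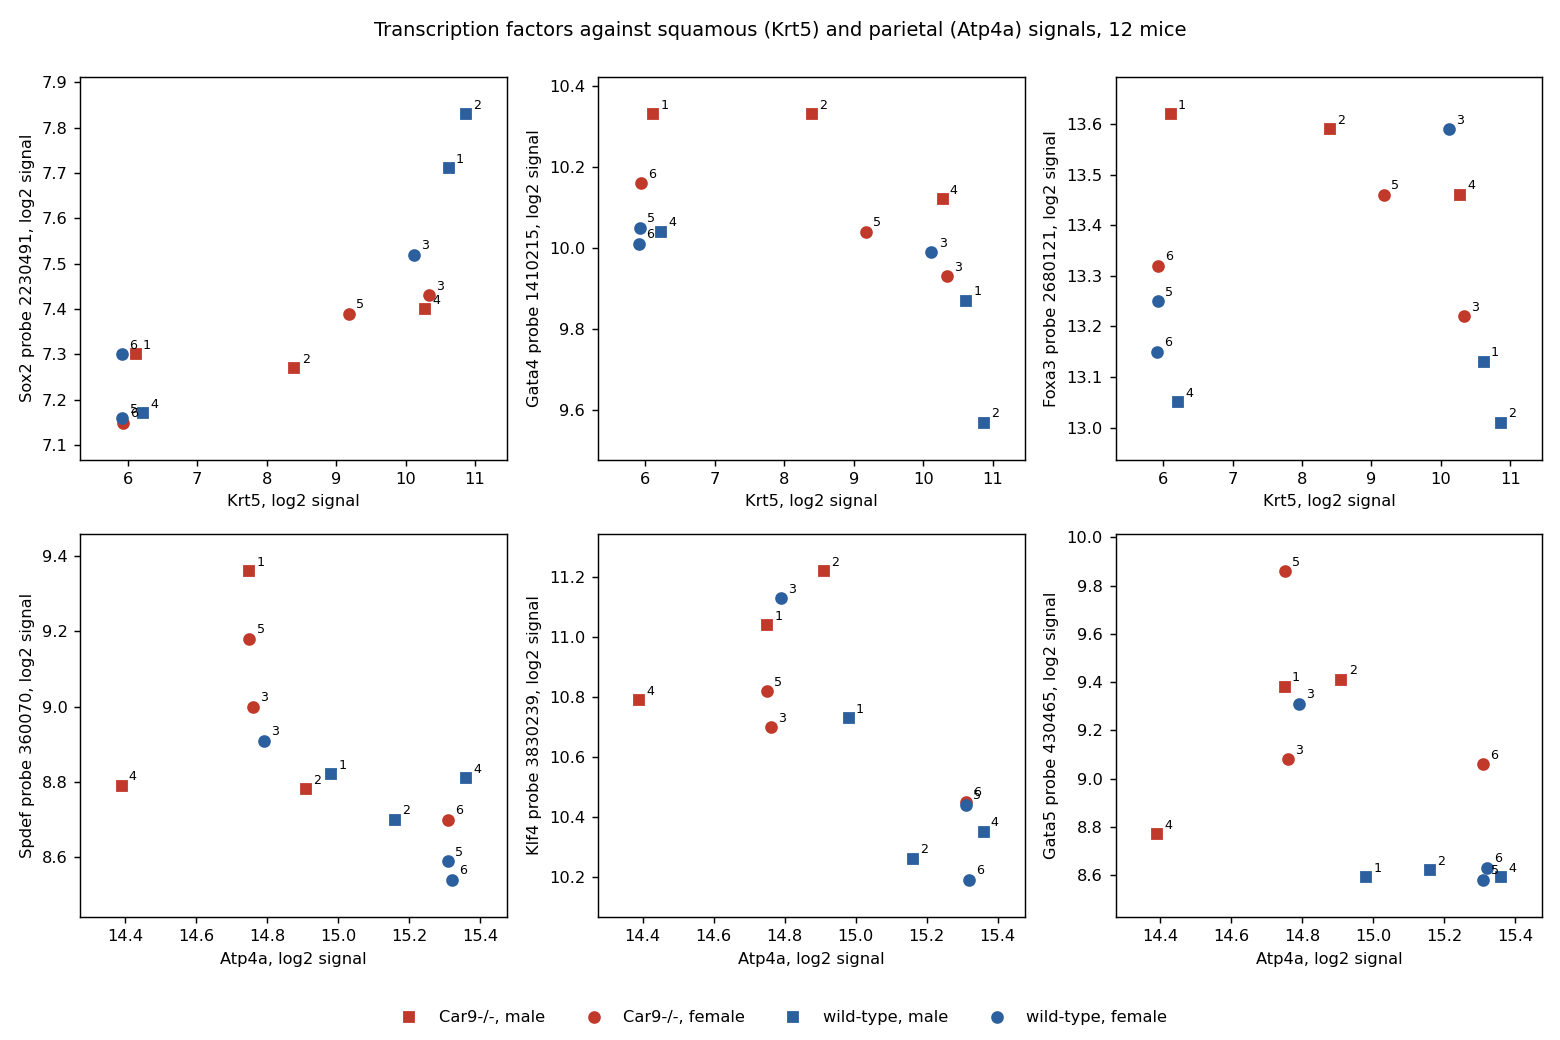
Log2 signals of Sox2, Gata4 and Foxa3 against Krt5 (top row) and of Spdef, Klf4 and Gata5 against Atp4a (bottom row) in the 12 mice, coloured by genotype and numbered by mouse. Krt5 leaves 5 mice at 6.22 or less apart from 7 at 8.40 or more, and Car9-/- mouse 4 has the lowest Atp4a signal, at 14.39.

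Atp4a probe 6220154 and Gkn1 each left 1 mouse apart, Car9-/- mouse 4 at 14.39 for Atp4a and Car9-/- mouse 5 at 14.83 for Gkn1, and their relations were computed over the other 11 mice. The other Atp4a probe, 105910097, left no mouse apart by this rule (largest gap 25.2% of its range). The relations over 11 mice did not use that probe, so whether they hold at it was not tested. Spdef (r = -0.808, permutation p = 9.00e-04, adjusted p = 0.0360, rho = -0.826) was lower where Atp4a was higher, the only relation of the 40 past the threshold by r. By rho 14 passed, 5 with Krt5, 5 with Krt14 and 4 with Atp4a. Without the 2 mice farthest from the median (wild-type mice 4 and 6), r was -0.828. With Car9-/- mouse 4 included, r was -0.591 (permutation p = 0.0430, adjusted p = 0.191). Within the 6 Car9-/- mice it was -0.285 (exact permutation p = 0.586), and within the 6 wild-type mice -0.722 (exact permutation p = 0.110). The call of Spdef against Atp4a was thus lost when that mouse was kept, and with the genotype means removed first r was -0.727 (permutation p = 0.0111, adjusted p = 0.223). With arrays brought to a common median, Car9-/- mouse 4 was no longer apart, and over all 12 mice r was -0.593 for Spdef (permutation adjusted p = 0.245) and -0.858 for Klf4 (permutation adjusted p = 0.0288), which was then the only relation called.

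Klf4 (r = -0.817, permutation p = 0.00424, adjusted p = 0.0848) and Gata5 (r = -0.753, permutation p = 0.0102, adjusted p = 0.136) ran in the same direction against Atp4a over the 11 mice. Over all 12 mice their r was -0.708 for Klf4 and -0.492 for Gata5 (permutation adjusted p = 0.186 and 0.277). By rho, Spdef, Klf4, Klf5 and Gata5 passed against Atp4a over the 11 mice (permutation adjusted p = 0.0351). Over all 12, Klf4 (rho = -0.723) and Klf5 (rho = -0.761) still passed by rho (permutation adjusted p = 0.041). Spdef and Gata5 then did not (permutation adjusted p = 0.0584 and 0.08). Within the 6 Car9-/- mice r was -0.339 for Klf4 and 0.167 for Gata5 (exact permutation p = 0.514 and 0.808), and within the 6 wild-type mice -0.905 and -0.776 (exact permutation p = 0.0208 and 0.103). The relations depended on the probe: with the probe of highest SD for each gene, r over the 11 mice was -0.375 for Klf4 (permutation adjusted p = 0.412) and -0.913 for Klf5 (permutation adjusted p = 0.00760). Without wild-type mice 4 and 6, r over the remaining 9 of the 11 mice was -0.744 and -0.678. Klf5 had r = -0.657 over the 11 mice (permutation p = 0.0332, adjusted p = 0.148, rho = -0.749), -0.687 over all 12, -0.632 within the 6 Car9-/- mice (exact permutation p = 0.172) and -0.264 within the 6 wild-type mice (exact permutation p = 0.596). Wild-type mouse 3, with the lowest Atp4a of its group at 14.79, also had the highest Klf4 (probe 3830239), Gata5, Foxa3 and Spdef values among wild-type mice. It was also the only mouse aged 8 months, the others being aged 10 or 12. Its age thus cannot be told apart from its other traits. That mouse had a mean level of 9.33 over 4 genes of antrum and duodenum (Cdx2, Pdx1, Vil1 and Gast), against 6.90 to 8.02 in the other wild-type mice, and 1 of the 4 genes, Vil1, was called higher in Car9-/- mice (1.03, limma adjusted p = 0.0395). In Car9-/- mice the mean level was 9.95 in mouse 2 and 7.12 to 7.65 in the others, and its part in the values of the 10 genes was not tested. None of the 10 genes passed against Gkn1 by r over the 11 mice, the nearest being Sox2 (r = -0.601, permutation p = 0.0504, adjusted p = 0.170). The Gkn1 signal was brighter than 99.9% of all tested probes, and its range over all 12 mice was 0.55 on the log2 scale. Atp4a probe 6220154 was brighter than 99.8% of them, with a range of 0.97. So near the top of the scale, a relation to Gkn1 or a genotype difference in it could be missed, which was not tested.

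Among 17 other tested factors listed for the gut, of epithelium or its mesenchyme, 3 were called higher, 2 lower and 12 neither. Hnf4a, which encodes a nuclear receptor of gut and liver epithelium, had 10.54, 10.68 and 10.81 in Car9-/- mice and 9.61, 10.07 and 10.28 in wild-type mice, without overlap (difference 0.65, limma adjusted p = 0.00603). Runx1 (0.51, limma adjusted p = 0.00929) and Onecut2 (0.59, limma adjusted p = 0.0198) were higher too. The Onecut2 probe, 102680632, was detected in 6 Car9-/- but only 3 wild-type mice, so its wild-type mean lay partly at background. Another Onecut2 probe, 1340008, was detected in 2 Car9-/- and 0 wild-type mice and was not tested. Barx1, a factor of the stomach mesenchyme, was lower (-0.56, limma adjusted p = 0.0106), as was Bhlha15 (-1.46, limma adjusted p = 0.0392), a factor of zymogenic cells in the stomach and of pancreatic acini. Hnf4a, Runx1, Onecut2 and Barx1 kept their directions but lost their calls with the pancreas level as a covariate, and Runx1 and Barx1 also with the smooth muscle level. Bhlha15 was not refitted. Onecut2 also lost its call without wild-type mice 4 and 6.

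Of 12 tested factors of squamous epithelium, among them Trp63, Grhl1 and Tfap2a, 0 were called by limma, 0 had an unadjusted p under 0.05, and their median difference was 0.06. Of 2 tested endocrine factors, Isl1 and Insm1, 0 were called by limma and 0 had an unadjusted p under 0.05. Among 11 further members of the SOX, GATA and KLF families and cofactors of GATA proteins, Klf6 rose and Zfpm2 fell. Klf6 probe 110541 had 12.61, 12.75 and 12.89 in Car9-/- mice and 11.91, 12.32 and 12.54 in wild-type mice, without overlap (difference 0.44, limma adjusted p = 0.0180). The other tested Klf6 probe, 5360026, had a difference of 0.42 and was not called (limma adjusted p = 0.15). Zfpm2, the gene of the GATA cofactor FOG2, had 6.79, 7.11 and 7.21 in Car9-/- mice and 7.14, 7.50 and 7.64 in wild-type mice (difference -0.42, limma adjusted p = 0.0234). Both lost their calls with the pancreas level or the smooth muscle level as a covariate, and Zfpm2 also without Car9-/- mouse 1, Car9-/- mouse 4 or wild-type mouse 5. Sox7, Sox18, Sox21, Gata2, Gata3, Klf2, Klf3, Klf9 and Zfpm1 did not pass, with Zfpm1 nearest (0.34, limma adjusted p = 0.0572).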

How the data were processed

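Stomach RNA of 6 Car9-/- and 6 wild-type mice, grouped by the genotype in their labels, was hybridized to 1 array per mouse. The authors deposited, for each of 46643 probes, the signal intensity from BeadStudio on a linear scale, without normalization or background subtraction, and the detection p-value of the probe on its array. Log2 values that the authors had quantile-normalized in Chipster were deposited as well. Here the deposited intensities were log2-transformed and quantile-normalized, and the result differed from the authors' log2 values by at most 0.0224. Detection was a p-value under 0.01, and the 20751 probes detected on 3 or more arrays were tested with lmFit and eBayes of limma 3.58.1 (R 4.3.3) over all 12 mice. The Benjamini-Hochberg adjustment ran over all tested probes, with a threshold of 0.05. Probes were named from the platform table, which gives 1 symbol for 32794 probes, several for 55 and none for 13794. Filtering dim probes leaves their small differences untested, and signals without background subtraction understate the changes of dim probes.

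Relations over mice used permutation tests, two-sided, with 100000 resamples for 11 or 12 mice and exact enumeration for 7 or fewer, in python 3.11.15 with scipy 1.17.1. A signal whose largest gap between neighbouring values exceeded 1/3 of its range was taken as split, and r was computed within parts of at least 6 mice. The naming rule took the 10 genes and the 4 signal genes, Car9, and up to 4 called genes of each other list or the one with the lowest p. It also took for each gene the 3 named genes most like it by Pearson's r, which over samples that share a genotype effect is a description. Not every gene under this rule is given above. Prss1, Amy2a5, Adipoq and the genes most like Foxa1, Foxa2, Gata4, Gata6 and Spdef are left out, and for Foxa3 only the nearest is given. Bhlha15, the squamous and endocrine factors without a call, the smooth muscle genes, the antrum genes and the further family members named were chosen after their values were seen. The members and lists were chosen with earlier results of these data known. The fits were tested on simulated data. Alternatives were other normalizations and filters, an intensity trend, array weights, covariates, each mouse left out and a block for the replicate number. The smooth muscle covariate and the relations over all 12 mice were added after seeing the data. The number of mice limits the precision.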

Additional observations from a re-analysis of the deposited data

Results flagged for a closer look

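In 3 of the 40 sets of 6 mice examined, at the tested probes of the 10 genes and of Krt5, Krt14, Atp4a and Gkn1, 1 mouse stood apart from the other 5 by Dixon's criterion, which by chance picks out about 1 in 20 sets. Gata5 was 9.31 in wild-type mouse 3, with the next value at 8.63. Gata6 probe 106450408 was 8.28 in Car9-/- mouse 5, with the next at 7.52. Gkn1 was 14.83 in Car9-/- mouse 5, with the next at 15.25.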

How the results depend on the processing

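Of the 390 differences recomputed for the 15 probes, 347 kept their direction and their side of the threshold, 36 passed only under the alternative, 3 no longer passed and 4 changed sign (Foxa2 without Car9-/- mouse 4, at 0.00, was counted as kept). The 2197 calls over all probes became 4011 with median scaling, 138 with the pancreas covariate, 3804 with array weights, 1007 with the smooth muscle covariate, 963 without wild-type mice 4 and 6 (which hold the highest pancreas signals), and 1204 to 3360 with each mouse left out. With sex and age as covariates they became 2638, and with the Krt5 and Krt14 covariate 2531. With the replicate number as a block they became 461, of which 451 were among the 2197, while the 2 calls of the 10 genes remained. The deviations of same-numbered mice correlated above 0.1 for 1 of 6 numbers (r = 0.501 at number 6), and the main fit did not use the numbers as pairs. Same-numbered mice were of the same sex, and whether the numbers reflect a pairing is not settled by these correlations. The 2 calls among the 15 probes became 13 with median scaling, 7 with sex and age, 5 with the Krt5 and Krt14 covariate, 1 with the pancreas covariate, 6 with array weights, 1 without wild-type mice 4 and 6, and 2 to 7 with each mouse left out. The Gata6 call was lost without wild-type mice 4 and 6 (0.56, limma adjusted p = 0.0953). The single relation called by r became 2 with the probe of highest SD, 0 with residuals from the genotype means, 0 with a single mouse apart kept, 0 without wild-type mice 4 and 6, and 0 to 1 with each mouse left out. With median scaling it was Klf4 with Atp4a that was called, not Spdef. At an unadjusted permutation p under 0.05, 4 relations were counted with residuals, 9 with the single mice kept and 9 without wild-type mice 4 and 6, against 10 of the 40. Signs changed for Foxa2 with median scaling (0.14) and with the pancreas covariate (0.00), for Sox2 (0.02) and Gata6 probe 1770010 (-0.07) with the smooth muscle covariate, for Gkn1 with median scaling (-0.07), the smooth muscle covariate (-0.06) and single mice left out (-0.01 and 0.00), for Krt5 with its own covariate (-0.22), the pancreas covariate (-1.66), without wild-type mice 4 and 6 (-1.01) and with single mice left out (-0.38 to 0.61), for Krt14 with the pancreas covariate (-2.05), without wild-type mice 4 and 6 (-1.02) and without wild-type mouse 5 (-0.02, in a range of -0.02 to 1.59 with each mouse left out), and for Insm1 with the pancreas covariate (0.01). The causes were not tested. A block by array chip was not run, because the file headers name no chip.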
